A study of Homo sapiens with 20 samples.

Results

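The genes described here are those of the human mitochondrial genome, taken as every gene whose symbol in the count files starts with MT-. They are 37 of 58288 genes: 13 protein genes, 2 rRNA genes and 22 tRNA genes, and all 37 versioned identifiers were found in GENCODE v29 on chrM of GRCh38. Their RNA was counted in polyadenylated RNA of 2 diffuse large B-cell lymphoma (DLBCL) lines kept for 8 h or 18 h in either TK, a compound so named in the labels, or its solvent DMSO, to compare transcription under TK with that under DMSO. The groups were DOHH2 with TK for 8 h (3 libraries), DOHH2 in DMSO for 8 h (3), DOHH2 with TK for 18 h (3), DOHH2 in DMSO for 18 h (2), U2932 with TK for 8 h (2), U2932 in DMSO for 8 h (3), U2932 with TK for 18 h (3) and U2932 in DMSO for 18 h (1). The labels do not say what TK is, at which dose it was given, or whether replicates were separate cultures, so p-values measure only the spread between these libraries, which may be technical. Each line is a single cell line, and every value for U2932 in DMSO at 18 h rests on a single library.

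The mitochondrial genome is a small circle of DNA present in many copies per cell. It encodes subunits of respiratory complexes I, III and IV and of ATP synthase, together with the rRNAs and tRNAs of the mitochondrion's own ribosomes. Both strands are transcribed as long precursors by a dedicated polymerase, POLRMT, with the factors TFAM and TFB2M. The mRNAs and rRNAs are released by cleavage, mostly at the tRNAs between them, and most are then polyadenylated. MT-ND6 is the protein gene read from the opposite strand to the others.

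The 20 libraries held 30363255 to 52275430 counts in genes, with a median of 34671988. A pair of DOHH2 libraries stood apart in measures that touch these genes. In DOHH2 TK 8 h replicate 1 the mitochondrial genes took 3.29% of the counts in genes, against 5.06 to 8.08% in the other 19 libraries. Counts with no unique alignment made up 56.6% of the total in DOHH2 TK 18 h replicate 1 and 20.7 to 34.3% elsewhere. A further 6 libraries had 61.9 to 74.9 CPM (a library's counts relative to its TMM-scaled total in genes) of the pseudogene PPIAP22 and 1.90 to 3.95 CPM of the nuclear copy MTND2P28, against 7.96 to 29.03 CPM of PPIAP22 and 20.02 to 95.8 CPM of MTND2P28 in the other 14. These 6 libraries carry index numbers 13 to 16, 25 and 27, and they include all 3 DMSO libraries of 18 h, besides DOHH2 TK 18 h replicate 3, U2932 TK 8 h replicate 1 and U2932 TK 18 h replicate 3. All 6 B-cell markers on the list had counts in both lines, with summed levels of 805.7 to 1481 CPM in DOHH2 and 2352 to 3010 CPM in U2932. T-cell and erythroid markers summed to at most 0.525 CPM in any library, myeloid markers to at most 2.37 CPM, and the 3 epithelial or stromal markers to between 5.03 and 33.0 CPM. The 5 germinal-centre markers summed to 162 to 265.2 CPM in DOHH2 and 478.6 to 612.7 CPM in U2932, and the 4 markers of the activated B-cell type to 813.7 to 1153 CPM in DOHH2 and 509.9 to 675.8 CPM in U2932. Gene by gene the lists were split. In DMSO at 8 h, 1 germinal-centre marker was higher in DOHH2 (GCSAM) and 4 were lower, among them BCL6, at 0 to 0.358 CPM in DOHH2 and 329.9 to 409.4 CPM in U2932 over all libraries. Of the activated-type markers 2 were higher and 2 lower, with a median log2 difference of -0.35, and the sum is mostly IRF4 (674.4 to 962.5 CPM in DOHH2 and 325.9 to 420.3 CPM in U2932). DOHH2 is usually classed as germinal-centre type and U2932 as activated type, so 4 of the 5 germinal-centre markers go against the classes and the activated-type markers are divided. Every direction between the lines below rests on the labels as deposited.

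The 22 tRNA genes were the members without signal. The files held a single count for all of them, of MT-TF (tRNA for phenylalanine), in DOHH2 TK 18 h replicate 3. A count of 0 allows up to 3 counts per gene and library, which is 5.74e-06 to 9.88e-06% of the counts in genes and covers counting error only. The tRNA genes are short, 59 bases (MT-TS2) to 75 bases (MT-TL1), and lie between the longer genes. The sequence of MT-TF, on the plus strand of chrM:577-647 (GRCh38, GENCODE v29), is shown as the tRNA gene with the count, next to the shortest, MT-TS2 (a serine tRNA, chrM:12207-12265), neither with any base in capitals.
MT-TF: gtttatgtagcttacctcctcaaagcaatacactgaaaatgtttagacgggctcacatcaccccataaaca
MT-TS2: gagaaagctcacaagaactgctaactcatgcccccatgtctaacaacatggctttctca

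Some protein genes share bases, and reads that fall wholly within shared bases cannot be given to a single gene. MT-ATP8 and MT-ATP6, subunits of ATP synthase, share 46 bases at chrM:8527-8572. MT-ND4L and MT-ND4, subunits of complex I, share 7 bases at chrM:10760-10766. The strand setting and the rule for overlaps used in the counting are not given in the labels or files. The shared bases of the ATP synthase genes are shown with the start codon of MT-ATP6 in capitals.
MT-ATP8 and MT-ATP6: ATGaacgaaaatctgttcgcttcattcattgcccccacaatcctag

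The nuclear genome holds a long copy of mitochondrial sequence on chromosome 1, annotated there as 7 pseudogenes (chr1:629062-634922). Aligned with their mitochondrial genes these copies were 97.6 to 98.7% identical, with identical runs of 62 bases (MTATP8P1) to 266 bases (MTND2P28) at the longest. Windows of 60 bases from the pair with the copy that differed between libraries, MTND2P28, and from the pair with the highest copy, MTATP6P1, are shown with the differing bases in capitals. MT-ND2 and MTND2P28 differ at 4 bases between chrM:4899-4958 and chr1:630069-630128. MT-ATP6 and MTATP6P1 differ at 3 bases between chrM:8642-8701 and chr1:633811-633870. All 4 windows are on the plus strand.
MT-ND2: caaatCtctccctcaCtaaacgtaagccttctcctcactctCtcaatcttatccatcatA
MTND2P28: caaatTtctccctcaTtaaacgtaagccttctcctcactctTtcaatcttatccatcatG
MT-ATP6: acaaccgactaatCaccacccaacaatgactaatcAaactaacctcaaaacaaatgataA
MTATP6P1: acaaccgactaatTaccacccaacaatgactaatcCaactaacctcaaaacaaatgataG

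The copies took counts at very different levels. MTATP6P1 had 264.1 to 597.7 CPM over the 20 libraries, which was 7.80 to 14.4% of the CPM of MT-ATP6 in the same library. MTCO1P12 had 13.8 to 26.9 CPM, or 0.153 to 0.197% of MT-CO1. MTND2P28 came to 0.0583 to 0.0989% of MT-ND2 in the 6 libraries that stand apart at this gene and to 1.23 to 2.30% in the other 14. MTND1P23, MTCO2P12, MTATP8P1 and MTCO3P12 stayed under 1 CPM in every library. Reads that match a gene and its copy equally well have no unique alignment, so how counts are split between these pairs is uncertain. Of 13 humanin-like nuclear copies of MT-RNR2, 1 passed the filter on low counts. Its log2 change with TK at 18 h was 0.95 in DOHH2 and 1.105 in U2932. For DMSO at 18 h against 8 h in DOHH2 it was -2.03. None of these changes passed the threshold, and how counts are split between this copy and MT-RNR2 was not tested.

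The 15 protein and rRNA genes had counts in every library, passed the filter on low counts and were ordered by CPM per kilobase of gene length. MT-CO2, a subunit of complex IV (cytochrome c oxidase), was highest at 13010 ± 1730 CPM per kb (SD, n = 20 libraries of all groups) and MT-ATP8 lowest at 781 ± 195 CPM per kb, a 16.7-fold range. The other mitochondrial subunits of complex IV followed MT-CO2, with MT-CO3 at 10380 ± 1601 and MT-CO1 at 7803 ± 1060 CPM per kb (n = 20). MT-CO2 exceeded MT-CO3 in 19 of 20 libraries, and MT-CO3 exceeded MT-CO1 in 20 of 20. MT-ND4 of complex I came next at 6913 ± 1451 CPM per kb and MT-ATP6 at 6119 ± 1161 CPM per kb (n = 20). A gap followed, since MT-ATP6 exceeded MT-CYB, the mitochondrial subunit of complex III, in all 20 libraries and by 1.71-fold on average.

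Several neighbours in that order did not separate. MT-CYB (3572 ± 1004 CPM per kb) was above MT-ND2 (3540 ± 680.5) in 12 of 20 libraries. MT-RNR2, the large rRNA, at 3026 ± 683.8 CPM per kb was above MT-ND1 (2883 ± 553.1) in 10 of 20. MT-ND5 (1790 ± 452.6) was above MT-ND3 (1744 ± 415.8) in 12 of 20. MT-ND4L (2410 ± 522) lay between MT-ND1 and MT-ND5. The lowest were MT-ND6 at 1196 ± 411.5, MT-RNR1, the small rRNA, at 1070 ± 356.9, and MT-ATP8. Both mitochondrial rRNAs thus stood well below the mRNAs of complex IV in these libraries of polyadenylated RNA, and the share of rRNA molecules that carry a poly(A) tail was not measured.

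**Figure D1:**
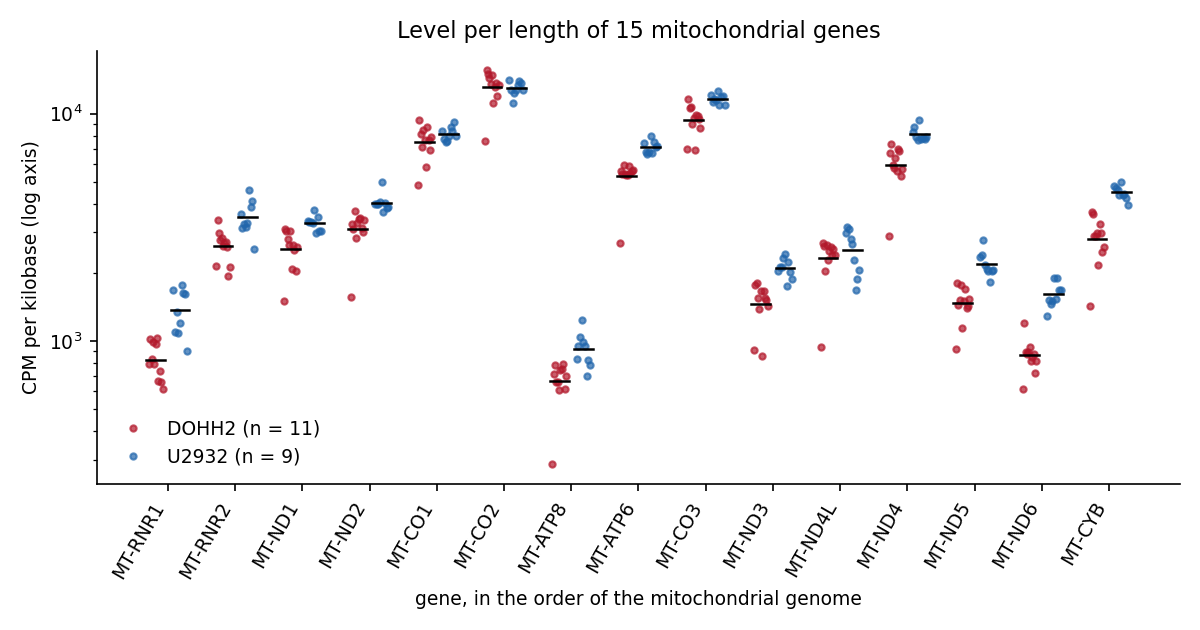
Level of the 15 counted mitochondrial genes in CPM per kilobase (log axis), in the order of the mitochondrial genome, with 1 point per library for DOHH2 (red, n = 11) and U2932 (blue, n = 9) and a bar at the mean of each line. MT-CO2 is highest and MT-ATP8 lowest in both lines, and the lowest DOHH2 point of most genes is TK 8 h replicate 1.

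The order was almost the same in both lines, since the 15 ranks differed only for MT-CYB and MT-ND2, which held places 7 and 6 in DOHH2 and 6 and 7 in U2932. Within groups, the 13 protein genes moved together from library to library. All 78 pairs of protein genes had a positive correlation of log2 CPM after the mean of each group was taken off (median r = 0.82, range 0.38 to 0.97, over the 19 libraries whose groups hold another). This is a description: the points share libraries, and DOHH2 TK 8 h replicate 1, low for most of these genes, is among them.

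Between the lines, mitochondrial genes took a smaller share of counts in DOHH2 than in U2932, with no overlap. The share was 3.29 to 6.49% of the counts in genes in the 11 DOHH2 libraries (median 5.84%) and 6.94 to 8.08% in the 9 U2932 libraries (median 7.30%). The mean difference over the 4 combinations of compound and time was -1.75 percentage points, lower in DOHH2 in 4 of 4 (exact permutation test, two-sided, p = 8.333e-05, the smallest its 12000 arrangements allow, and 0.0002222 after Benjamini-Hochberg adjustment over the 8 tests of shares). Without replicate 1 of DOHH2 TK at both times it was -1.39 points, and -1.63 points when libraries were compared only within the 6 that stand apart at MTND2P28 and within the other 14, a split chosen after seeing the data. U2932 TK 8 h replicate 1 has no DOHH2 library of its compound and time in its set and dropped out of that comparison. Cells with fewer mitochondrial transcripts and cells with more nuclear RNA cannot be told apart from such shares.

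The difference held for both classes with counts. Protein genes took 2.91 to 5.97% in DOHH2 and 6.22 to 7.41% in U2932, a mean difference of -1.56 points. The rRNA genes took 0.361 to 0.587% in DOHH2 and 0.509 to 0.864% in U2932, a difference of -0.195 points. In each class it was lower in DOHH2 in 4 of 4 combinations, with the same smallest p (exact permutation test, adjusted p = 0.0002222). The rRNA ranges overlapped because the single U2932 DMSO library of 18 h was the lowest of its line, at 0.509%.

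**Figure D2:**
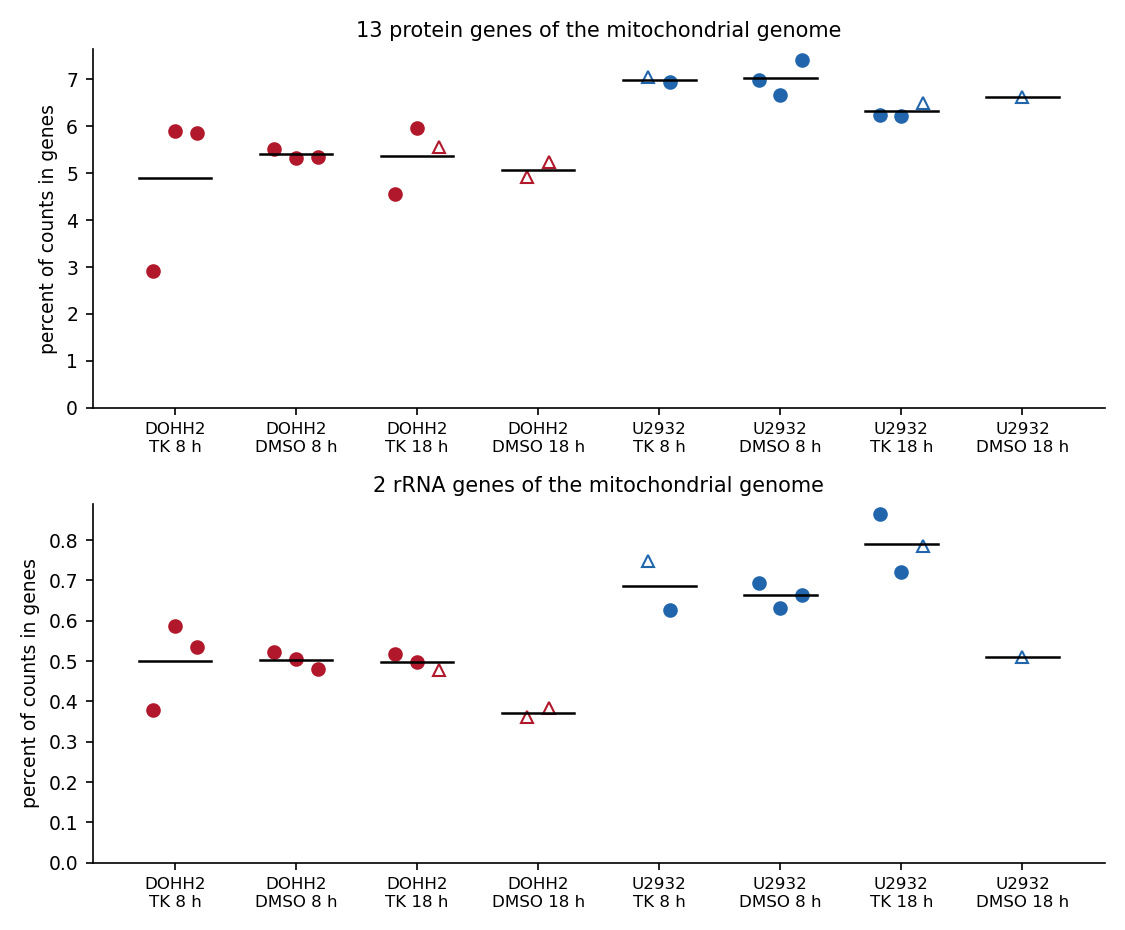
Percent of counts in genes that fell in the 13 protein genes (top) and the 2 rRNA genes (bottom) of the mitochondrial genome, with 1 point per library, red for DOHH2 and blue for U2932, and a bar at the group mean. Open triangles are the 6 libraries with 1.90 to 3.95 CPM of MTND2P28, and all 3 DMSO libraries of 18 h are among them.

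Gene by gene, members were lower in DOHH2 than in U2932 wherever the difference passed the threshold. In DMSO at 8 h, 6 of 15 were lower and 0 higher by edgeR's quasi-likelihood test (adjusted p under 0.05 after Benjamini-Hochberg adjustment over 16478 genes). Of all genes tested, 67.8% passed in that comparison, 34.9% lower and 33% higher. The count of members lower is thus near the share of all genes that were lower. In either direction, members passed less often than all genes. Of the 15 members, 13 had a negative log2 difference and 2 a positive one. Their median log2 difference was -0.40, against -0.03 for all genes tested. With TK at 8 h, 8 of 15 were lower and 0 higher (background 62.8%, of which 32.1% lower and 30.7% higher), with a median of -0.58 (-0.25 without DOHH2 TK 8 h replicate 1) against -0.03 for all genes. With TK at 18 h, 6 of 15 were lower and 0 higher (background 34.9% lower and 34.2% higher), with a median of -0.36 against -0.003. The 3 comparisons share no library, but members lie on common precursor transcripts and are not replicates of each other. The counts moved with the fit, to 14, 7 and 9 past the threshold without replicate 1 of DOHH2 TK at both times. The share of all genes called in that fit, or with single libraries left out, is not given here. With single libraries left out, the count of members moved as follows. With TK at 8 h it was 5 without DOHH2 TK 8 h replicate 1, 2 without U2932 TK 8 h replicate 1 and 3 without U2932 TK 8 h replicate 2. With TK at 18 h it was 3 without DOHH2 TK 18 h replicate 1.

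MT-ND6, MT-CYB and MT-RNR1 were lower in DOHH2 in all 3 comparisons. MT-ND6, a complex I subunit, had 321.4, 632.5 and 469.1 CPM in DOHH2 with TK at 8 h, 461.4, 469.6 and 494.7 in DMSO at 8 h, 426.5, 447.3 and 461.3 with TK at 18 h, and 378.8 and 429.2 in DMSO at 18 h. In U2932 it had 673.4 and 796.5 CPM with TK at 8 h, 766.5, 786.7 and 989.7 in DMSO at 8 h, 805.5, 988.5 and 877 with TK at 18 h, and 883.1 in DMSO at 18 h. Every DOHH2 library was below every U2932 library. The share of all genes that separate the lines in this way is not given here. MT-ND6 is read from the opposite strand to the other protein genes, and the strand setting of the counting is not given. Whether its counts include RNA of the other strand was not tested. The log2 difference of MT-ND6 was -0.83 (SE 0.17) in DMSO at 8 h, -0.63 (SE 0.19) with TK at 8 h and -1.0 (SE 0.17) with TK at 18 h, with adjusted p of 0.0002214, 0.006221 and 3.028e-05 by edgeR's quasi-likelihood test. The call with TK at 8 h was lost without U2932 TK 8 h replicate 2 (log2 -0.51, adjusted p = 0.07843, edgeR), and with voom (-0.41, adjusted p = 0.05151).

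MT-CYB, cytochrome b, also had no overlap between the lines, again without a share over all genes to set beside it. It had 1623, 4213 and 4129 CPM in DOHH2 with TK at 8 h, 3292, 3299 and 3399 in DMSO at 8 h, 2458, 3725 and 3406 with TK at 18 h, and 2807 and 2950 in DMSO at 18 h. In U2932 it had 5501 and 5371 CPM with TK at 8 h, 5253, 4978 and 5732 in DMSO at 8 h, 4994, 5030 and 4827 with TK at 18 h, and 4532 in DMSO at 18 h. The low values of both DOHH2 TK replicate 1 libraries widened its spread. The log2 difference of MT-CYB was -0.68 (SE 0.23), -0.71 (SE 0.25) and -0.63 (SE 0.23) in the same order, with adjusted p of 0.01264, 0.01811 and 0.01848 (edgeR). Without these 2 libraries it was -0.67, -0.38 and -0.47, and all 3 still passed the threshold. The call with TK at 8 h was lost without either U2932 TK library of that time (adjusted p = 0.07027 and 0.05999, edgeR), and that with TK at 18 h without DOHH2 TK 18 h replicate 1 alone (log2 -0.47, adjusted p = 0.09016).

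MT-RNR1, the rRNA of the small ribosomal subunit, overlapped between the lines. It had 755.2, 975.2 and 796.2 CPM in DOHH2 with TK at 8 h, 942.6, 754.5 and 924.9 in DMSO at 8 h, 987.1, 634 and 705.5 with TK at 18 h, and 629.6 and 589.1 in DMSO at 18 h. In U2932 it had 1591 and 1040 CPM with TK at 8 h, 1284, 1036 and 1148 in DMSO at 8 h, 1675, 1552 and 1528 with TK at 18 h, and 863.6 in DMSO at 18 h. The overlap came from that last library, which lay below 4 DOHH2 libraries. The log2 difference of MT-RNR1 was -0.40 (SE 0.17), -0.64 (SE 0.18) and -1.03 (SE 0.17), with adjusted p of 0.03862, 0.004836 and 1.721e-05 (edgeR). The call in DMSO was lost when the library left out was DOHH2 DMSO 8 h replicate 2 or 3 or U2932 DMSO 8 h replicate 1 or 3 (adjusted p of 0.05195 to 0.1603, edgeR), and that with TK at 8 h when it was U2932 TK 8 h replicate 1, at 1591 CPM (-0.31, adjusted p = 0.2281).

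Other members passed the threshold in some comparisons. MT-ND5, a large complex I subunit, was lower in DOHH2 in both comparisons at 8 h (log2 -0.67 in DMSO and -0.77 with TK), with 1676 to 3265 CPM over the DOHH2 libraries and 3301 to 5051 CPM over the U2932 libraries. MT-ATP8 was lower at 8 h (log2 -0.76 in DMSO and -0.58 with TK) but had a log2 difference of -0.12 with TK at 18 h, which did not pass. MT-ND3 was lower in DMSO at 8 h (log2 -0.58) and with TK at 18 h (-0.55). MT-ND2, MT-ATP6 and MT-ND4 were lower with TK at 8 h alone, and MT-RNR2 and MT-CO3 with TK at 18 h alone. MT-CO1, MT-CO2, MT-ND1 and MT-ND4L passed in no comparison. MT-CO2 had log2 differences of 0.24, -0.08 and -0.11, with SE of 0.18 to 0.20. The calls of MT-ND5, that of MT-ATP8 in DMSO and that of MT-RNR2 passed whichever single library was left out. MT-ND2, MT-ATP8 and MT-ND4 lost theirs with TK at 8 h without DOHH2 TK 8 h replicate 1 or either U2932 TK library, and MT-ATP6 without U2932 TK 8 h replicate 1. MT-CO3 and MT-ND3 lost theirs with TK at 18 h without DOHH2 TK 18 h replicate 1 or U2932 TK 18 h replicate 2 or 3, and MT-ND3 in DMSO without DOHH2 DMSO 8 h replicate 2 or U2932 DMSO 8 h replicate 3. Whether members differed from each other in this was not tested.

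**Figure D3:**
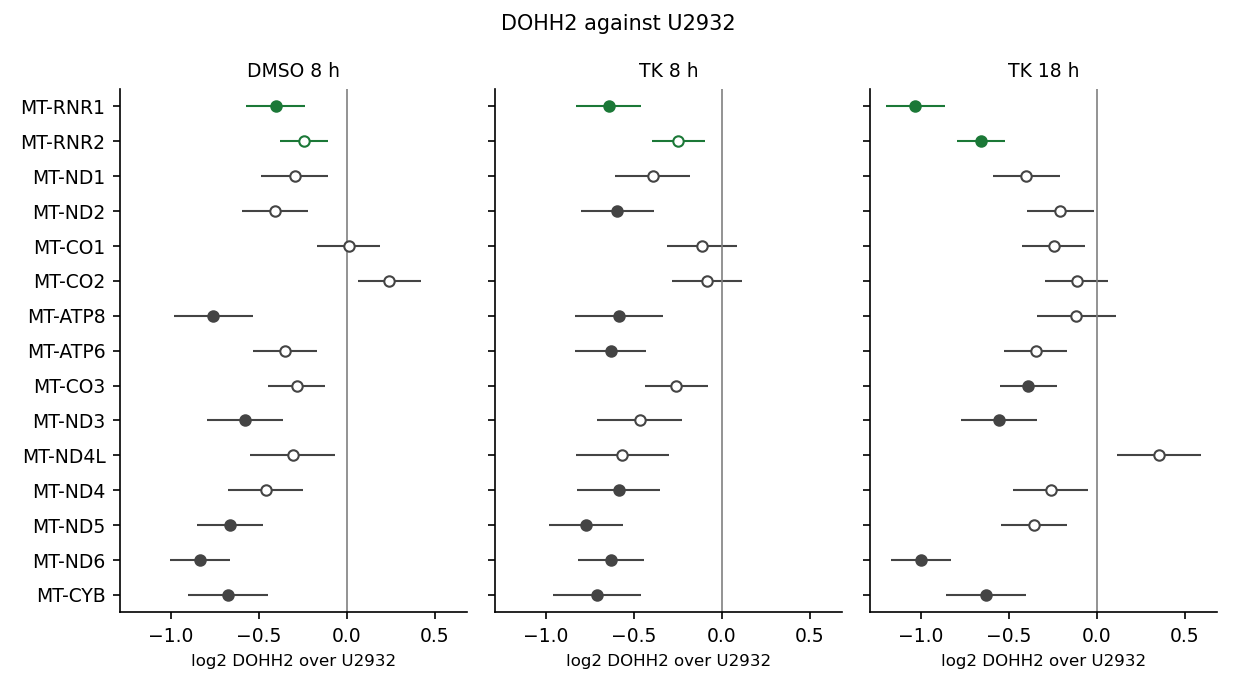
Log2 difference of DOHH2 over U2932 with its SE for the 15 mitochondrial genes, in genome order, in DMSO at 8 h, with TK at 8 h and with TK at 18 h. Filled points passed the adjusted p of 0.05 in edgeR's quasi-likelihood test, and green marks the rRNA genes. All filled points lie below 0, and MT-CO1 and MT-CO2 lie nearest to 0 at 8 h.

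Within the mitochondrial counts, the shares of single genes were not the same in both lines. MT-CO2 took 14.2 to 16.8% of the mitochondrial counts in DOHH2 and 10.8 to 12.9% in U2932. MT-CYB took 4.59 to 6.33% in DOHH2 and 6.52 to 7.495% in U2932. MT-ND6 took 0.706 to 0.909% in DOHH2 and 0.894 to 1.34% in U2932, with the lowest U2932 library inside the DOHH2 range. These shares are parts of a whole, and no test was made of them.

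No mitochondrial gene was called under TK. None of the 15 passed the threshold against DMSO in either line at either time (edgeR's quasi-likelihood test, Benjamini-Hochberg adjustment). Of all genes tested, 0% passed at 8 h in each line, and 0.0728% of genes at 18 h for DOHH2 and 0.0182% for U2932, so few genes of any kind were called. At an unadjusted p under 0.05 there were 0 members at 8 h in each line, and 1 at 18 h for DOHH2 and 2 for U2932. Of all genes, 3.02% in DOHH2 and 1.67% in U2932 had such a p at 8 h, and 8.56% and 7.45% at 18 h. DESeq2 called 0 members, other than 1 in U2932 at 18 h. Of 16478 genes it called 60 there, 85 in DOHH2 at 18 h and 0 at 8 h in each line. Limma's voom with library quality weights called 1 member in DOHH2 and 2 in U2932 at 18 h and 0 at 8 h. How many of all genes voom called is not given here. The median log2 change of the members in DOHH2 was -0.08 at 8 h and 0.06 at 18 h, and that in U2932 was 0.02 at 8 h and 0.08 at 18 h, against medians of all genes between -0.002 and 0.02. The sign of 3 of these medians turned with 1 library: they became 0.19 in DOHH2 at 8 h without TK replicate 1, -0.01 in DOHH2 at 18 h without TK replicate 2, and -0.06 in U2932 at 8 h without TK replicate 1.

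The protein genes lay close to 0 in each comparison. Their log2 changes in DOHH2 spanned -0.31 to -0.0003 at 8 h and -0.12 to 0.23 at 18 h, and those in U2932 -0.29 to 0.16 at 8 h and -0.08 to 0.13 at 18 h, with SE of up to 0.34 over the members. All 13 were negative in DOHH2 at 8 h, where replicate 1 of TK was low for most of them. The share of counts in the protein genes was 2.91 to 7.06% with TK (11 libraries) and 4.91 to 7.41% in DMSO (9 libraries), a mean difference of -0.139 points within line and time (exact permutation test, two-sided, p = 0.7013, adjusted p = 1). Without replicate 1 of DOHH2 TK at both times the difference was 0.210 points (adjusted p = 0.2439). For all mitochondrial genes the difference was -0.0323 points (p = 0.9397, exact permutation test), and 0.329 points (adjusted p = 0.06867) without these 2 libraries.

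**Figure D4:**
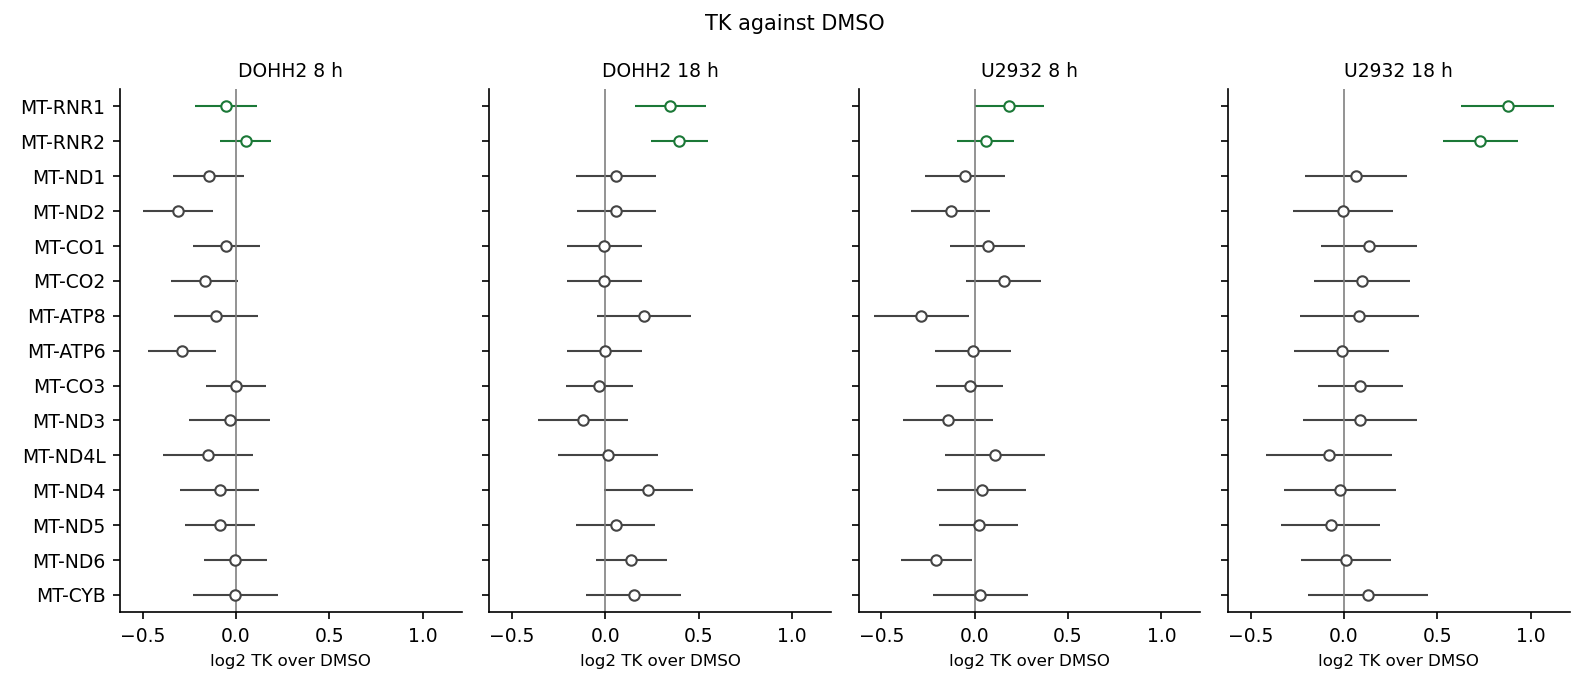
Log2 change of TK over DMSO with its SE for the 15 mitochondrial genes, in genome order, in each line and at each time. Open points did not pass the adjusted p of 0.05, which is all of them, and green marks the rRNA genes. The rRNA genes lie at 0.35 to 0.88 at 18 h, to the right of all 13 protein genes in both lines, though MT-RNR1 in DOHH2 lies at 0.14 without TK 18 h replicate 1.

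The 2 rRNA genes had the highest log2 values of the members at 18 h. In U2932, MT-RNR1 had 1675, 1552 and 1528 CPM with TK at 18 h and 863.6 CPM in DMSO, and MT-RNR2 had 7187, 6079 and 6463 CPM with TK and 3963 CPM in DMSO. The log2 changes of 0.88 (SE 0.25) for MT-RNR1 and 0.73 (SE 0.20) for MT-RNR2 did not pass after adjustment (adjusted p = 0.3981 and 0.3714, edgeR). The DMSO arm is 1 library, assumed to vary like the other groups. With the DMSO libraries of 8 h added to the control, the changes were 0.55 for MT-RNR1 and 0.46 for MT-RNR2, and both passed (adjusted p = 0.0381 and 0.03479, edgeR). In DOHH2, MT-RNR2 had 4212, 4236 and 4045 CPM with TK at 18 h and 3018 and 3311 CPM in DMSO. MT-RNR1 had 987.1, 634 and 705.5 CPM with TK and 629.6 and 589.1 CPM in DMSO. The log2 changes in DOHH2 were 0.40 (SE 0.15) for MT-RNR2 and 0.35 (SE 0.19) for MT-RNR1, with adjusted p of 0.4862 and 0.6343 (edgeR). Without TK replicate 1 of that time the change of MT-RNR1 in DOHH2 was 0.14, the same as the median of the members in that fit. With the DMSO libraries of 8 h added to the control, the changes in DOHH2 were 0.12 for MT-RNR2 and 0.01 for MT-RNR1. At 8 h both rRNA genes lay between -0.05 and 0.19 on the log2 scale in both lines.

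Summed over both genes, the rRNA share was higher with TK by a small margin, and the call depended on the fit. It was 0.378 to 0.864% of counts in genes with TK and 0.361 to 0.693% in DMSO, a mean difference of 0.107 points within line and time (exact permutation test, two-sided, p = 0.01875, adjusted p = 0.0375 over 8 tests), higher in 3 of 4 combinations of line and time. Group means of this share were 0.500% with TK and 0.503% in DMSO for DOHH2 at 8 h, and 0.497% and 0.372% at 18 h. In U2932 they were 0.687% and 0.663% at 8 h, and 0.790% and 0.509% at 18 h. The largest difference, that of U2932 at 18 h, rests on 1 DMSO library, which no fit left out. The call was lost (adjusted p of 0.05083 to 0.1075, exact permutation test) in 9 of the 19 fits that leave out a single library: DOHH2 TK 8 h replicate 2 or 3, DOHH2 DMSO 8 h replicate 3, DOHH2 TK 18 h replicate 1, DOHH2 DMSO 18 h replicate 1, U2932 TK 8 h replicate 1, U2932 DMSO 8 h replicate 2, or U2932 TK 18 h replicate 1 or 3. It was also lost with all counts as the denominator (0.0548 points, adjusted p = 0.09175) and with replicate number as a block (0.0628 points, adjusted p = 0.3125). As a percent of the mitochondrial counts, a measure chosen after its values were seen, the rRNA genes took 7.68 to 12.2% with TK and 6.82 to 9.04% in DMSO. That mean difference was 1.79 points, higher with TK in 4 of 4 combinations (exact permutation test, two-sided, p = 0.0035, adjusted p = 0.007 over 2 tests). Between the lines this percent differed by -0.561 points, lower in DOHH2 in 3 of 4 combinations, which did not pass (p = 0.236, exact permutation test, also after adjustment). The group means were 9.64% with TK and 8.52% in DMSO for DOHH2 at 8 h, 8.60% and 6.84% for DOHH2 at 18 h, 8.94% and 8.64% for U2932 at 8 h, and 11.1% and 7.14% for U2932 at 18 h.

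At 18 h the compounds are split unevenly over the libraries that stand apart. All 3 DMSO libraries of 18 h are among the 6 with few MTND2P28 counts, while 4 of the 6 TK libraries of 18 h are among the other 14. Between libraries of the 6 alone, MT-RNR2 had 4045 CPM with TK and 3018 and 3311 CPM in DMSO in DOHH2, and 6463 CPM with TK and 3963 CPM in DMSO in U2932. MT-RNR1 had 705.5 CPM with TK and 629.6 and 589.1 CPM in DMSO in DOHH2, and 1528 CPM with TK and 863.6 CPM in DMSO in U2932. The TK library was thus the higher in both lines for both genes, with 1 TK library in each. With libraries compared only within these 6 and within the other 14, the difference of the rRNA percent of mitochondrial counts was 1.37 points (exact permutation test, adjusted p = 0.1917), and that of the rRNA share 0.0855 points (adjusted p = 0.5333). TK libraries with no DMSO library of their line and time in the same set dropped out of these tests. They were DOHH2 TK 18 h replicates 1 and 2, U2932 TK 8 h replicate 1 and U2932 TK 18 h replicates 1 and 2. The DOHH2 TK libraries numbered 1 had 11.5% of mitochondrial counts in rRNA genes at 8 h and 10.2% at 18 h. The difference with TK was 1.56 points without that of 8 h (adjusted p = 0.0125), 1.59 points without that of 18 h (adjusted p = 0.01) and 1.36 points without both (adjusted p = 0.02, exact permutation tests).

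**Figure D5:**
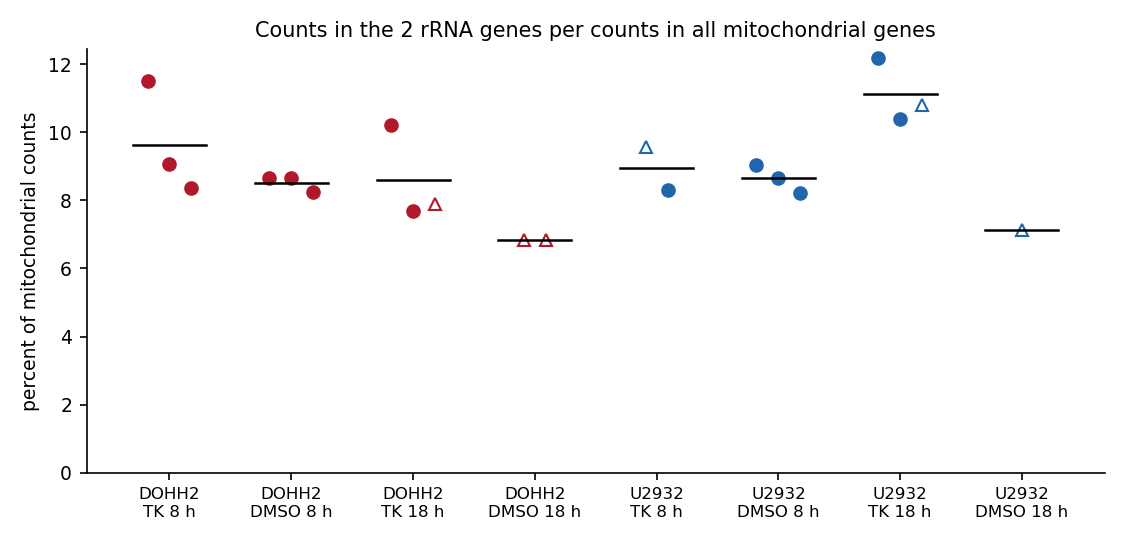
Counts in MT-RNR1 and MT-RNR2 as a percent of the counts in all mitochondrial genes, with 1 point per library, red for DOHH2 and blue for U2932, and a bar at the group mean. Open triangles are the 6 libraries with 1.90 to 3.95 CPM of MTND2P28. The 3 DMSO libraries of 18 h, at 6.82 to 7.14%, are the lowest of all 20.

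Between the DMSO libraries of 18 h and those of 8 h, time cannot be told apart from the libraries that stand apart, since all 3 of 18 h and none of 8 h are among the 6. In DOHH2 the log2 change of DMSO at 18 h against 8 h was -0.52 (SE 0.19) for MT-RNR1 and -0.43 (SE 0.15) for MT-RNR2, which did not pass (adjusted p = 0.2971 and 0.272, edgeR). None of the 15 members passed in that comparison, where 0.631% of all genes did (104 genes, and 1 with these 6 libraries as a term of the fit), and 2 had an unadjusted p under 0.05. Of all genes, 10.8% had an unadjusted p under 0.05 there. DESeq2 called 0 members and 284 of all genes, and voom called 2 members. With TK at 18 h against 8 h, no member passed in DOHH2 (background 1.57%) or in U2932 (background 0.218%), where 0 and 2 had an unadjusted p under 0.05. Such a p was reached by 18% of all genes in DOHH2 and 18.7% in U2932. DESeq2 called 0 members in both, with 864 of all genes in DOHH2 and 860 in U2932. Voom called 1 member in DOHH2 and 0 in U2932. How many of all genes voom called in these comparisons of times is not given here. The lowest adjusted p in U2932 was that of MT-ND4L, a small complex I subunit, which had 674.6, 497.5 and 557.8 CPM with TK at 18 h and 889.5 and 943.8 CPM with TK at 8 h (log2 -0.67, SE 0.26, adjusted p = 0.1813, edgeR).

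The response to TK was not shown to differ between the lines or the times. None of the 15 members passed the test of DOHH2's response against that of U2932 at 8 h (background 0%) or at 18 h (background 0.0243%), and 0 had an unadjusted p under 0.05 in either (1.92% and 6.17% of all genes). MT-RNR1 had the difference of largest size at 18 h, -0.53 on the log2 scale (SE 0.30, adjusted p = 0.8352, edgeR). The response at 18 h against that at 8 h gave 0 members in DOHH2 (background 0.0121%) and 0 in U2932 (background 0.00607%), with 0 and 2 at an unadjusted p under 0.05 (4.32% and 3.11% of all genes). DESeq2 and voom called 0 members in these 4 comparisons. Over all genes DESeq2 called 0 and 23 between the lines at 8 h and 18 h. Between the times it called 7 in DOHH2 and 1 in U2932. The calls of voom over all genes are not given here.

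Nuclear genes whose products act on the mitochondrial genome were read from lists. Of 9 genes of mitochondrial transcription, 4 were higher and 0 lower in DOHH2 than in U2932 in DMSO at 8 h. They were TFAM (96.64 ± 7.497 CPM in DOHH2 and 68.9 ± 6.21 CPM in U2932, SD, n = 3 each, log2 0.49), the polymerase POLRMT (0.45), TFB1M (0.90), which methylates the small rRNA, and MTERF4 (0.73), an assembly factor of the mitochondrial ribosome. Of 8 replication genes 4 were higher and 1 lower, among them the helicase TWNK (92.7 ± 12.8 CPM in DOHH2 and 39.2 ± 3.47 CPM in U2932, log2 1.24) and, lower, the nuclease MGME1 (log2 -1.39). Of 18 genes of RNA processing, stability and decay, 7 were higher and 3 lower. SUPV3L1, the helicase of the mitochondrial RNA degradosome, was higher in DOHH2 (77.3 ± 3.35 against 24.5 ± 2.43 CPM in U2932, log2 1.66), and REXO2, an exonuclease for very short RNAs, was lower (20.1 ± 2.50 against 61.7 ± 1.96 CPM, log2 -1.61). All named here passed the threshold of edgeR's test, as did 67.8% of all genes in that comparison (33% higher and 34.9% lower). With TK at 18 h, where 69.2% of all genes passed (34.2% higher and 34.9% lower), 4 transcription genes were higher and 2 lower. Their median log2 was 0.05, against 0.31 in DMSO at 8 h. Of the replication genes 3 were higher and 1 lower (median -0.15, against 0.26). Of the genes of RNA processing, stability and decay 8 were higher and 4 lower (median 0.14, against 0.18).

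The nuclear-encoded partners of the members were counted in the same way. Of 78 tested genes of the mitochondrial ribosome, whose rRNAs are MT-RNR1 and MT-RNR2, 29 were higher and 16 lower in DOHH2 in DMSO at 8 h (median log2 0.10), and with TK at 18 h 6 were higher and 49 lower (median -0.50, all genes -0.003). Of all genes tested, 33% were higher and 34.9% lower in DMSO at 8 h, and 34.2% higher and 34.9% lower with TK at 18 h. MRPS21 of the small subunit was lower in DOHH2 in both, with 71.1 ± 3.57 against 559 ± 48.5 CPM in U2932 in DMSO at 8 h and 56.1 ± 6.36 against 704.6 ± 53.1 CPM with TK at 18 h (n = 3 each). Of 93 tested nuclear genes of the respiratory chain, 32 were higher and 13 lower in DMSO at 8 h, and 8 higher and 64 lower with TK at 18 h, where 69.2% of all genes passed.

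Against DMSO at 18 h none of these nuclear genes passed. The signs of the mitochondrial ribosome genes were 21 positive and 57 negative in DOHH2 (median log2 -0.13) and 75 positive and 3 negative in U2932 (median 0.26), against medians of all genes of 0.02 and -0.002. Those of the respiratory chain genes were 13 positive and 80 negative in DOHH2 (median -0.18) and 85 positive and 8 negative in U2932 (median 0.25). MRPL44 of the large subunit had the smallest adjusted p among them in U2932, with 45.0 ± 1.02 CPM with TK (n = 3) and 28.4 CPM in the single DMSO library (log2 0.66, SE 0.15, adjusted p = 0.2256, edgeR). Each list in U2932 is set against the same single DMSO library, so their genes do not vary independently.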

How the data were processed

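The deposited files hold raw counts per gene for 20 libraries of polyadenylated RNA, made by the authors with STAR on GRCh38.p10 and HTSeq, per the submitters' processing notes. Strand setting, annotation release and read length are not given in the labels. Summary counts (32.7 to 62.7% of all counts) stayed out of totals. Members and lists were chosen with earlier results of these data known. All members may be named, and from each nuclear list up to 4 genes past the threshold by adjusted p, or else that with the smallest p, not all of which are printed. A single fit of all libraries used edgeR 4.0.16 in R 4.3.3 (quasi-likelihood, robust, TMM, 8 groups) on 16478 of 34160 genes with counts, kept at 0.288 CPM (10 counts in the median library) in at least 3 libraries, and adjusted over these genes at a threshold of 0.05. Alternatives changed scaling, filter, tool (DESeq2 1.42.0, voom of limma 3.58.1), libraries, replicate block and denominators. Shares were tested by exact permutation within line and time or compound and time. Where these were split further, libraries without a counterpart in the same part dropped out. Fits were tested on simulated data. Sequences and coordinates came from GENCODE 29 transcripts of GRCh38.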

Additional observations from a re-analysis of the deposited data

Results flagged for a closer look

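DOHH2 TK 18 h replicate 1 was flagged for counts outside the genes, since 56.6% of its total counts were without a unique alignment (20.7 to 34.3% in the remaining 19 libraries). Its mitochondrial genes took 5.06% of the counts in genes, against 6.47 and 6.03% in the other libraries of its group. Its rRNA genes took 10.2% of the mitochondrial counts, against 7.68 and 7.90%. The part of the counts without a unique alignment in these values was not tested.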

How the results depend on the processing

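Scaling by RLE or by nuclear genes alone and a filter at 50 counts moved no count of members past the threshold by over 1.5 times. The member counts below are given without the share of all genes called in each fit. Against DMSO at 18 h in U2932 the count of 0 became 1 without a filter, with DESeq2 or without replicate 1 of DOHH2 TK at both times, and 2 with the 2 groups alone, voom or both times' DMSO libraries as control. In DOHH2 at 18 h it became 1 with voom. Between the lines in DMSO at 8 h the count of 6 became 11 with library totals or voom and 14 with the 2 groups alone or without both replicate 1 libraries. With TK at 8 h the 8 became 4 with the 2 groups alone and 2 to 11 as single libraries were left out, and with TK at 18 h the 6 became 10 without a filter or with voom and 3 to 6 by single libraries. For DMSO at 18 h against 8 h in DOHH2, the 0 became 1 without a filter or without both replicate 1 libraries, and 2 with voom. For TK at 18 h against 8 h, the 0 became 1 with voom in DOHH2, and in U2932 1 without a filter, with 1 line or the 2 groups alone, and 2 without both replicate 1 libraries. The share of all mitochondrial genes under TK turned to 0.0228 points with unassigned counts in the denominator, 0.329 without both replicate 1 libraries and 0.0248 within the 6 libraries set apart by MTND2P28 and within the rest (a split chosen after seeing the data), and ran from -0.169 to 0.230 as single libraries were left out. That of protein genes turned to 0.210 without both, and ran from -0.265 to 0.108. The rRNA share lost its call at 0.0548 points of all counts and at 0.0855 within the 6 and the rest, and ran from 0.0918 to 0.122 by single libraries. The rRNA percent of mitochondrial counts lost its call at 1.37 points within the 6 and the rest, and ran from 1.56 to 1.95; between the lines, where -0.561 did not pass (adjusted p = 0.236, exact permutation test), it passed at -0.995 without both replicate 1 libraries and at -0.793 without that of 8 h alone, and ran from -0.793 to -0.401. Whether replicate numbers pair the libraries was not settled. Of 7 same-numbered pairs within line and time, 3 had deviations correlated over 0.1 (range -0.097 to 0.636). Deviations from the means of such small groups cannot decide it. With replicate number as a block the rRNA share under TK was 0.0628 points (adjusted p = 0.3125), and no count of members moved by over 1.5 times. The causes of these changes were not tested. Depth sets the bound that a count of 0 allows for the 22 tRNA genes, and why these had almost no counts was not tested.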
